A study of Rattus norvegicus with 6 samples.

Results

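A row of a count table usually holds similar counts in every library of the same tissue. In the corneal epithelium of normal and diabetic rats 281 protein-coding rows did not. Each had a count of 0 in at least 1 of 6 libraries and a count of 50 or more in at least 1 other. They were chosen by these counts alone, so the pattern of zeros is a description and carries no test. They make up 281 of 20864 protein-coding rows and 281 of the 12828 (2.19%) that reach 50 counts in a library, in a table of 61453 rows in all. They are called members below. The 6 libraries came from male Brown Norway rats, 3 from a normal group (NOR) given citrate buffer and 3 from a diabetic group (STZ) given 1 intraperitoneal dose of 50 mg/kg streptozocin. Streptozocin destroys the insulin-producing cells of the pancreas, and a blood glucose above 16.67 mmol/l defined diabetes. At 16 weeks the corneas were cut out, and their epithelium was scraped off with a razor blade. The study took 6 corneas per group, and the sources used here do not say how these made up 3 libraries.

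The corneal epithelium is the stratified outer sheet of the cornea, marked by the keratin *Krt12* and the enzyme *Aldh3a1*. It is renewed throughout life, and high glucose is known to slow its healing. Neighbouring tissues of the eye have genes of their own, above all the lens, whose fibre cells are packed with crystallins. A gene model is 1 row of the table, and 1 product can have more than 1 row. Many rows without an official symbol carry a placeholder name, such as one that begins with LOC.

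The sequences below belong to *Crygb*, *Crygc* and *Crygd*, the γ-crystallins among the members, which lie side by side in the table on chromosome 9 and had their counts in the same libraries. Each is the 100 bases before the gene's start in RefSeq (build GRCr8, minus strand, chr9:73957265-73957364, chr9:73947348-73947447 and chr9:73937410-73937509 in this order). Capitals mark the runs of 8 or more letters that all 3 sequences share, CCCTTTTGTG and GCTATATA.
Crygb: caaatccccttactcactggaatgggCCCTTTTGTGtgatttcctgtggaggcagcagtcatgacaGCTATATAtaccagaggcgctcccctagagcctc
Crygc: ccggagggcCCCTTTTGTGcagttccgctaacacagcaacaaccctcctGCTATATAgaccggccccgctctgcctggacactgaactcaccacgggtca
Crygd: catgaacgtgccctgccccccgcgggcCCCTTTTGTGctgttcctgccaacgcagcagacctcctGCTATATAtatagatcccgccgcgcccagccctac
On either strand CCCTTTTGTG stood in 17 (0.0619%) and GCTATATA in 46 (0.168%) of 27457 promoters of this length, and the runs do not overlap each other. A match is a description of letters and not of a bound site.

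Total counts ran from 62288901 to 87040253 per library, so a count of 0 allows a level of up to 0.0345 to 0.0482 counts per 1000000 counts (CPM), from 3 counts and for counting error only. Protein-coding rows at 0 numbered 6093 to 6460 per library. *Krt12* stood at 16908 to 20343 CPM and *Aldh3a1* at 19848 to 22335 CPM, which matches the labelled tissue. The libraries also held transcripts of the stroma (summed level of 4 keratocyte markers, 3587 to 5168 CPM) and of the lens (4 markers, 4.86 to 1052 CPM). The conjunctival markers *Krt13* and *Krt4* had a summed level of 1041 to 3004 CPM, lowest in STZ 3. For 2 markers of the corneal endothelium it was 179 to 342 CPM. No library held more than 0.0931% of its counts in members.

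The members did not fall into a few patterns. Over the 6 libraries 55 distinct sets of zeros occurred. A zero in a single library was the rule, with 155 members (55.2%), followed by 65 members at 0 in 2 libraries, 24 in 3, 27 in 4 and 10 in 5. Members at 0 numbered 75, 79 and 95 in NOR 1, 2 and 3, and 80, 80 and 106 in STZ 1, 2 and 3. STZ 3 was the only library at 0 for 48 members, more than for any other library (16 to 26). Only 83 members (29.5%) were strictly all or none, with every library at 0 or at 50 counts or more, while 198 had at least 1 library between 1 and 49. The largest count of a member had a median of 98 and ran from 50 to 8681. It was 1000 or more in 31 members, at least 100 but under 1000 in 109 and under 100 in 141. Strict patterns were commonest among the highest rows, with 25 of 31, 49 of 109 and 9 of 141 in these 3 classes.

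**Figure D1:**
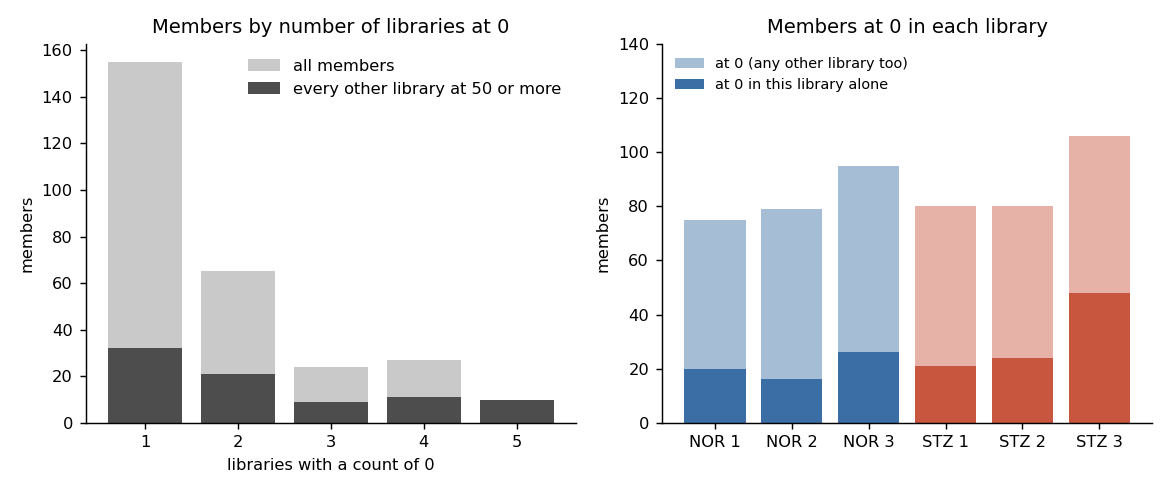
Left, number of members (y) by number of libraries with a count of 0 (x), with the strictly all-or-none members in dark grey. Right, number of members at 0 (y) in each library (x; NOR blue, STZ red), with members at 0 in that library alone in the darker tone, of which STZ 3 had 48 and the others 16 to 26.

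Of 281 members, 1 followed the groups. *N4bp3*, which encodes a binding partner of the ubiquitin ligase NEDD4, lies on the minus strand of chromosome 10 (rn6, chr10:37089940-37099678). It had 3164, 2936 and 2512 counts in NOR 1, 2 and 3 and 0 counts in each STZ library. No member was at 0 in every NOR library and at 50 or more in every STZ library. Among all 39850 rows that reach 50 counts in a library the first pattern held for 2 (0.00502%) and the second for 6 (0.0151%). The level of *N4bp3* was 36.5 ± 4.84 CPM (SD, n = 3) in NOR and at least 846-fold lower in STZ, with 3 counts per library as the floor.

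A second row for the same product did not show this pattern. LOC103689949, described in the table as nedd4 binding protein 3, lies 2 Mb away on the same strand (chr10:34997008-35005992). It had 4110, 3612 and 3329 counts in NOR and 5076, 3195 and 3503 in STZ, so it was counted in every library. Its level was 46.8 ± 5.52 CPM in NOR and 54.7 ± 3.52 CPM in STZ (SD, n = 3 each), and the ranges of the groups overlapped. Its log2 fold change on the log2(FPKM + 1) scale was 0.21 (SE 0.12, limma adjusted p = 0.953). In NOR, *N4bp3* held 77.0%, 81.3% and 75.5% of the count of LOC103689949. Summed, both rows stood at 83.2 ± 10.3 CPM in NOR and 54.7 ± 3.52 CPM in STZ, and these groups did not overlap. With rows of the same product summed over the whole table, the log2 fold change was −0.58 and did not pass (edgeR adjusted p = 0.994, unadjusted 0.00250). In that fit 5 of 44200 loci passed (0.0113%) and none of the 237 members tested. Unadjusted p was under 0.05 in 12 of these members and in 1774 of all 44200 loci.

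**Figure D2:**
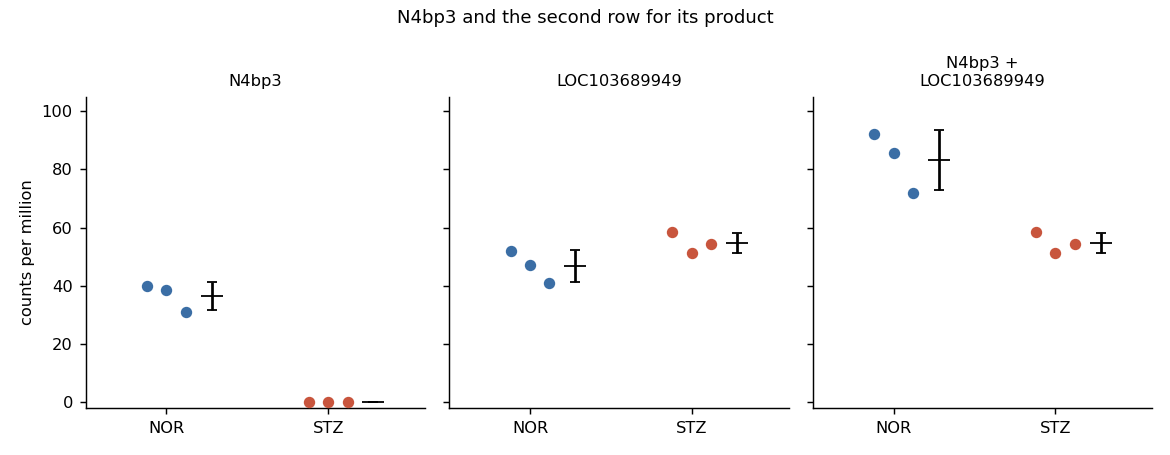
CPM (y) of N4bp3, of LOC103689949 and of their sum in the NOR and STZ libraries (x). Points are libraries, and bars show mean ± SD (n = 3); N4bp3 is at 0 in the 3 STZ libraries, and LOC103689949 lies between 41.0 and 58.3 in all 6.

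The rows most like *N4bp3* over the 6 libraries were *Smagp*, a membrane glycoprotein of epithelial contacts (Pearson r of log2(CPM + 1) 0.996), AC095390 (0.995) and *Pnp*, the purine nucleoside phosphorylase (0.995). None of these is a member. *Smagp* had 2272, 2284 and 2320 counts in NOR and 997, 746 and 667 in STZ. A likeness over 6 libraries of 2 groups is a description only.

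Members at 0 throughout 1 group were 10 for STZ and 14 for NOR, and most of these had their counts in 1 or 2 libraries of the other group. *Phykpl*, a phospho-lyase of hydroxylysine breakdown, had 0, 946 and 1242 counts in NOR and 0 in each STZ library. LOC103692167, described as the polycomb protein PCGF1, had 0, 199 and 218 in NOR and 0 in STZ. Its second row *Pcgf1* had 281, 219 and 228 in NOR and 432, 150 and 269 in STZ. *Selenbp1*, a selenium-binding protein, had 0, 170 and 119 in NOR and 0 in STZ. Its second row LOC103689947 had 198, 176 and 126 in NOR and 141, 0 and 12 in STZ. In *Phykpl*, LOC103692167 and *Selenbp1* a NOR library was at 0 as well. In the other direction LOC100911572, a row like the collagen gene *Col4a3*, had 826, 0 and 567 counts in STZ and 0 in NOR. The *Col4a3* row itself had 12830, 14363 and 8011 in NOR and 10030, 10338 and 7604 in STZ. *Lpo*, the lactoperoxidase of secretions, had 73, 120 and 0 in STZ and 0 in NOR. *Tbx4*, a T-box transcription factor, had 51, 12 and 12 in NOR against 0 in STZ. LOC103690044, described as glutathione S-transferase omega-2, had 61, 62 and 12 in STZ against 0 in NOR. Only these rows joined *N4bp3* in being above 0 in every library of the other group, at low counts. A row named for *Gsto2* and *Gsto1*, paired with LOC103690044 by description, held 2101 to 3863 counts.

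The fits across the whole table called few rows of any kind. To pass, a row needed an adjusted p below 0.05 together with a change of more than 1.2-fold. By limma on log2(FPKM + 1), 11 of 42551 rows passed (0.0259%). Of 281 members 85 had the mean FPKM of 0.5 that the fit required, and 1 passed, *N4bp3* (log2 fold change −3.0, SE 0.15, limma adjusted p = 0.00168). By edgeR on the counts 6 of 44589 rows passed (0.0135%). Of 227 members in that fit *N4bp3* alone passed, with edgeR adjusted p = 0.00232. Since the rule used these counts, the call adds nothing to the pattern itself. DESeq2 called 103 rows (0.231%), with *N4bp3*, LOC103690044 and *Tbx4* among them, out of 227 members of which 21 had no adjusted p. Unadjusted p was under 0.05 for 14 of 85 members by limma, against 2041 of all 42551 rows. By edgeR it was so for 8 of 227 members, against 1783 of 44589 rows. By DESeq2 it was so for 13 of 227 members, against 2159 of 44589 rows.

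Counts that did not overlap between the groups, converted to CPM, occurred in both directions among the members. Of 281 members 9 (3.20%) were lower in every STZ library than in any NOR library, against 5.94% of the protein-coding rows that reach 50 counts. In the opposite direction 13 members (4.63%) did not overlap, against 3.4%. *Tnf*, the inflammatory cytokine, had 0, 41 and 7 counts in NOR and 135, 90 and 41 in STZ, or 0.207 ± 0.288 and 1.21 ± 0.499 CPM (SD, n = 3 each). It did not pass (edgeR log2 fold change 2.58, adjusted p = 0.993), and a second row described as tumor necrosis factor, LOC103694380, stood at 0.701 ± 0.347 and 0.684 ± 0.363 CPM. *Cyp24a1*, which degrades active vitamin D, had 41, 0 and 29 counts in NOR and 280, 33 and 60 in STZ. *Sox10*, a transcription factor of the neural crest, lay lower in STZ (0.0983 ± 0.132 against 0.615 ± 0.212 CPM). Neither *Cyp24a1* nor *Sox10* passed (edgeR adjusted p = 0.993 for both).

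Some members sat in stretches of chromosome whose genes the table lists in 2 places. Within 100 kb of each other lay 51 members in 20 blocks (18.1% of members), and 7 blocks held 3 or more. The same share was not counted for other protein-coding rows, so it is no measure of clustering. Not every block has second rows, and that of *Crygb*, *Crygc* and *Crygd* has none. The 4 stretches described here have a second place in the table with rows for the same products in the same or the reverse order. Both places together hold 16 members. They and the pairing of their rows were chosen after the values had been seen, and other blocks have second rows as well, such as that of *Nol8* and *Omd* on chromosome 17. RefSeq on GRCr8 lists each of the 16 official symbols in these stretches once and none of the 16 LOC names. There *Phykpl*, *Hnrnpab*, *Nhp2*, *Rmnd5b* and *N4bp3* follow each other in 1 run.

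*N4bp3* is the last of 5 adjoining members in the first of these stretches (chr10:37032043-37099678), and the second place is chr10:34938667-35005992. The 5 rows in the first place were at 0 in different libraries. LOC103689931, for the RNA-binding protein *Hnrnpab* and the member with the largest count, had 6, 6657 and 8250 counts in NOR and 8681, 0 and 5288 in STZ. LOC103690013, for the snoRNP protein *Nhp2*, had 312, 0 and 224 in NOR and 259, 231 and 0 in STZ. LOC103689927, for the ubiquitin ligase subunit *Rmnd5b*, had 1258, 0 and 0 in NOR and 0, 917 and 1171 in STZ. With *Phykpl* and *N4bp3*, 13 of the 30 counts of this place were 0. No count was 0 in the second place, where *Hnrnpab* held 5316 to 9259, *Nhp2* 288 to 404, *Rmnd5b* 931 to 1452 and LOC103690164, the row for the phospho-lyase, 938 to 1735. Thus the row with zeros carried a symbol in *Phykpl* and *N4bp3*, and a LOC name in the other 3.

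The second stretch lies on chromosome 4 (chr4:157267401-157331905), with its counterpart on chromosome 9 (chr9:20213588-20278261). LOC100911672, for the transcriptional corepressor *Atn1*, had 2287, 0 and 2200 counts in NOR and 2906, 1895 and 1721 in STZ. The *Atn1* row on chromosome 9 had 2291, 2291 and 2237 in NOR and 2901, 1875 and 1711 in STZ. Where both were counted they were nearly equal, and where LOC100911672 was at 0 the *Atn1* row kept its level. *Tpi1*, the glycolytic triosephosphate isomerase, had 1306, 0 and 374 in NOR and 993, 690 and 0 in STZ, beside 1488 to 2421 in its second row LOC100911515. *Eno2*, the enolase of neurons, and its second row LOC100911625 were both members. *Eno2* had 74, 352 and 0 in NOR and 290, 25 and 6 in STZ, and LOC100911625 had 248, 0 and 12 in NOR and 291, 0 and 10 in STZ.

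In the third stretch (chr10:47765302-47792590, with chr10:49000973-49028069) *Mfap4*, a microfibril protein of the stroma, and *Mapk7*, the kinase ERK5, overlap on opposite strands. *Mfap4* had 2162, 1557 and 990 counts in NOR and 0, 1315 and 825 in STZ. *Mapk7* had 0 counts in 5 libraries and 1221 in STZ 3. Their second rows were counted in every library, LOC102553715 at 837 to 2444 and LOC100912585 at 1276 to 2774. In STZ 3, the library with *Mapk7* counts, LOC100912585 stood at its lowest count of 1276. Its mean level was 29.7 CPM over the other 5 libraries and 19.9 CPM there.

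The fourth stretch (chr4:114776797-114817465, with chr4:113910685-113951847) held members beside rows that were counted everywhere. LOC103692170 and *Ccdc142*, both for a coiled-coil protein, were both members. LOC103692170 had 0, 343 and 0 counts in NOR and 359, 0 and 291 in STZ, and *Ccdc142* had 0, 319 and 0 in NOR and 350, 329 and 297 in STZ. A few kilobases on, LOC103692171 and *Mogs*, rows for the glucosidase that trims new N-glycans, had nearly equal counts in all 6 libraries (966, 909, 792, 1068, 606 and 632 against 969, 907, 800, 1069, 609 and 635). Neither is a member.

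**Figure D3:**
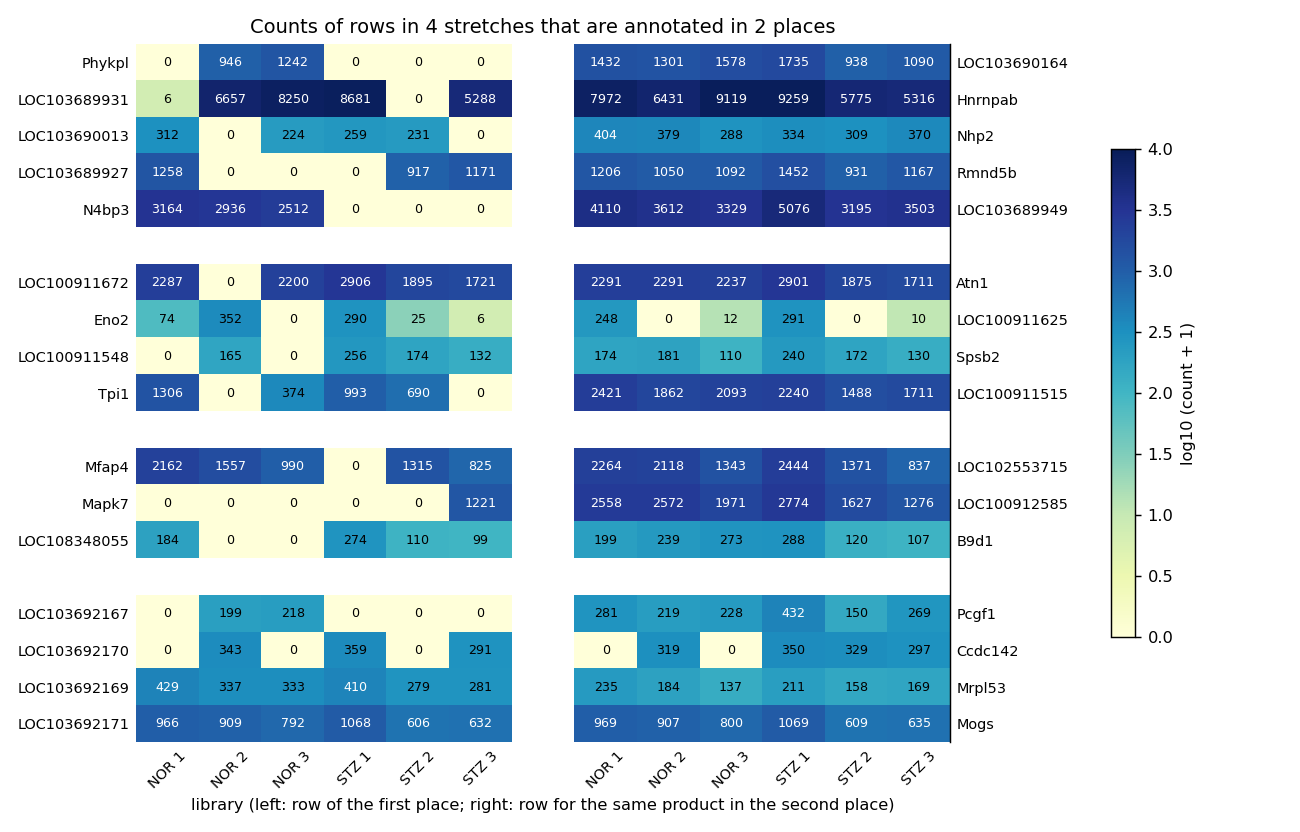
Counts in each library (columns; colour, log10(count + 1), with the count printed) for rows of 4 stretches, with the first place on the left and the row for the same product in the second place on the right. In the top block 13 of 30 counts are 0 on the left and none on the right.

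Over the whole set a second row for the same product was found for 66 members (23.5%), against 621 of the 12547 other protein-coding rows that reach 50 counts (4.95%). Such a row shares the symbol, the RefSeq symbol, the description or the KEGG orthology entry, lies elsewhere, and in the last 2 cases pairs a placeholder name with a symbol. A shared orthology entry can also pair related but different genes. Examples are *Gtf2i* with LOC100912262, which is like *Gtf2ird1*, and *Rraga* with LOC108348096. Such pairs are in the counts given here and below. The share was 48.4% among members of 1000 counts or more, 30.3% among those of at least 100 and 12.8% among those under 100. Placeholder names of the LOC or NEWGENE kind were carried by 54 members (19.2%) and 3.88% of the other rows. Of 53 LOC names 7 were found in RefSeq on GRCr8, and of 203 official symbols 202.

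Where a member was at 0, the second row was usually counted. For 48 of the 66 members the second row or rows had 50 counts or more in every library where the member was at 0. In 45 of 71 pairs the second row was no member and had 50 counts or more in all 6 libraries. Its mean CPM in libraries where the member was at 0, divided by that in libraries where the member had 50 or more, had a median of 1.08 and ran from 0.447 to 1.99. This ratio lay between 0.8 and 1.25 in 26 of the 45 pairs. In 11 pairs both rows had counts within 10% of each other in every library where the member had 50 counts or more. For some of these, such as *Mapk7*, that was 1 library. Only 7 of the 45 second rows gained at least 50% of the member's own level where the member was at 0. Some of these stood far above the member where it was counted, as for *Pigg* (member 2.92 CPM, second row 24.9 CPM) and LOC103690044 (0.848 and 36.2 CPM). In such pairs the spread of the second row alone can decide the gain, and a ratio near 1 cannot show whether counts moved. None of the 45 second rows passed in STZ against NOR (0 of 43 tested by limma, 0 of 45 by edgeR and by DESeq2), with unadjusted p under 0.05 in 0, 3 and 3 of them. Their median log2 fold change was −0.019 by limma, against −0.0049 over all 42551 rows.

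Pairs in which both rows had similar counts in most libraries where the member was counted included genes of broad use. LOC100912604, for the spermidine synthase *Srm*, had 856, 871 and 785 counts in NOR and 948, 575 and 0 in STZ. *Srm* itself had 849, 839 and 802 in NOR and 1035, 574 and 721 in STZ, so the pair came apart in STZ 3 alone. LOC100910771, for the kinase *Map3k7* (TAK1), had 0, 2245 and 2661 in NOR and 2573, 2019 and 179 in STZ. *Map3k7* had 2885, 2366 and 2804 in NOR and 2912, 2290 and 2492 in STZ, so these rows lay far apart in STZ 3 as well as in NOR 1. *Mrpl1*, of the mitochondrial ribosome, had 0, 197 and 293 in NOR and 259, 213 and 210 in STZ, and its second row LOC100359687 had 320, 197 and 257 in NOR and 294, 224 and 218 in STZ. LOC108348055, for the ciliary protein *B9d1*, had 184, 0 and 0 in NOR and 274, 110 and 99 in STZ, beside 199, 239 and 273 in NOR and 288, 120 and 107 in STZ for *B9d1*.

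In other pairs the second row was high where the member was low. *Ndufa1*, a subunit of respiratory complex I, had 0, 0 and 301 counts in NOR and 531, 700 and 0 in STZ. Its second row LOC108348144 had 645, 808 and 415 in NOR and 257, 5 and 625 in STZ. The gain of the second row where *Ndufa1* was at 0 was 96.5% of the level of *Ndufa1* where it was counted. *Fam50a* had 493, 431 and 0 in NOR and 719, 317 and 42 in STZ, and LOC100910130 had 499, 368 and 453 in NOR and 190, 42 and 365 in STZ. The rows of this pair were similar in NOR 1 and NOR 2, and in the other 4 libraries 1 row was high and the other low. *Rnf113a1*, a ring finger protein of the spliceosome, had 79, 86 and 106 in NOR and 54, 0 and 116 in STZ, and LOC108348079 had 79, 56 and 106 in NOR and 118, 96 and 22 in STZ. These rows were equal in NOR 1 and NOR 3 and differed most in the STZ libraries. These second rows lie on the X chromosome, as do *Ndufa1* and *Rnf113a1*, while *Fam50a* is listed on chromosome 4.

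In a few pairs both rows were members with zeros in the same libraries. LOC100910581 and *Ppp1r35*, a centriole protein, had 0, 0 and 84 against 0, 0 and 77 counts in NOR, and 90, 65 and 46 against 86, 63 and 41 in STZ. *RragB*, a GTPase of the amino acid sensor, and LOC108348096 had 61, 63 and 5 against 62, 49 and 4 in NOR, and 74, 37 and 0 against 75, 26 and 0 in STZ. For these pairs no row for the product took the counts in the libraries at 0. The orthology entry also pairs LOC108348096 with the related gene *Rraga*, which held 1456 to 2694 counts. By the definition above 5 pairs consisted of 2 members. Those of *Selenbp1*, *Omd* and *Dusp13* did not share all their zeros. *Omd*, for example, was at 0 in NOR 3, where its second row LOC103690116 had 66 counts. The pairs of *Eno2* and of *Ccdc142* in the stretches, matched by hand, come in addition.

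**Figure D4:**
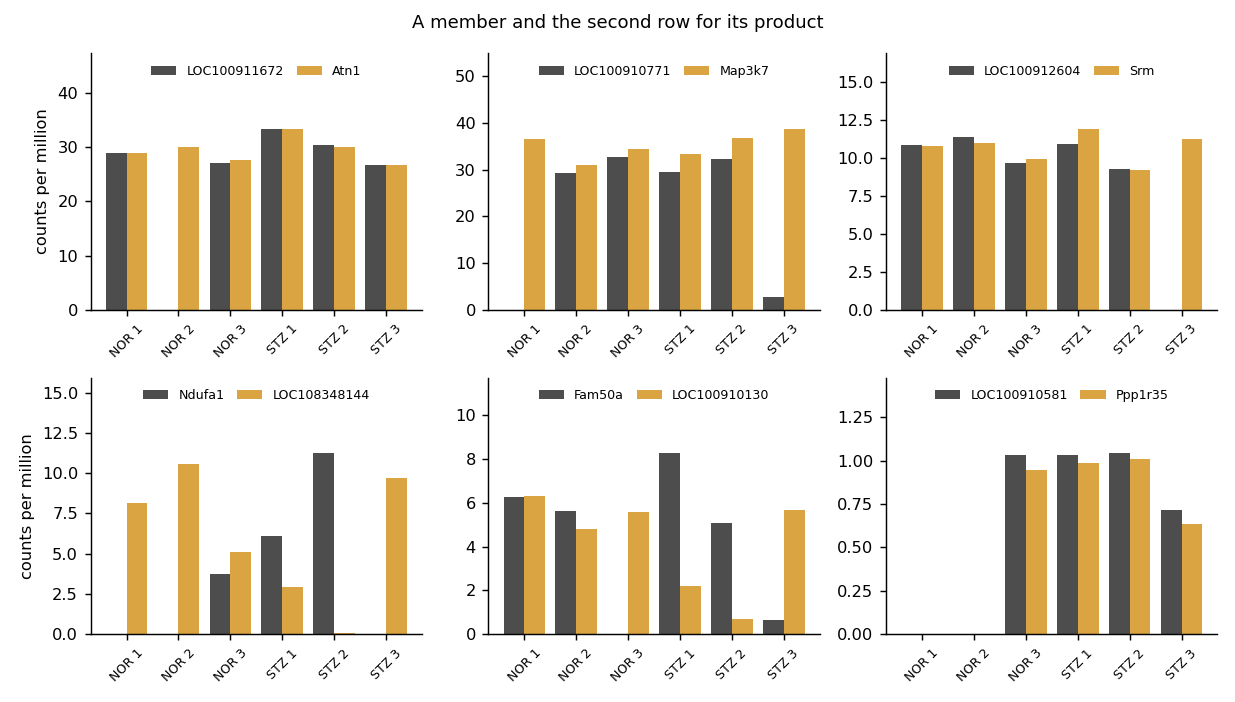
CPM (y) in each library (x) of 6 members (dark) and the second row for each product (yellow). In the top row the second row keeps its level where the member is at 0, LOC108348144 is high where Ndufa1 is at 0, Fam50a and its second row are similar in NOR 1 and NOR 2 only, and LOC100910581 and Ppp1r35 are both at 0 in NOR 1 and NOR 2.

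Overlapping or same-name rows met the limit set for taking up counts for few members. A row that overlaps on the same or an unassigned strand, or that shares the symbol on the same chromosome, was found for 52 members (18.5%), against 48.9% of the other protein-coding rows that reach 50 counts. For 6 members (2.14%) these rows together gained at least 50% of the member's level in the libraries where it was at 0. For *Eno2* the gain was 67.5%, and the partner was an unstranded fragment with 162 counts in NOR 3 and 115 in STZ 2, and 0 elsewhere. For *Entpd7*, a nucleotide-hydrolysing enzyme of the Golgi, with 95, 78 and 100 counts in NOR and 0, 65 and 73 in STZ, the gain was 58.2%. NEWGENE_621351, a row for collagen type I alpha 2 with 0, 0 and 53 counts in NOR and 0, 0 and 80 in STZ, had a same-name row of 49989 to 91585 counts. That row differed by 222 CPM between the libraries, far above the 0.949 CPM of the member. LOC100909595, like the glucose transporter *Slc2a3*, with 69, 74 and 10 counts in NOR and 32, 55 and 0 in STZ, overlaps *Apobec1*, which held 3243 to 4096. The remaining 2 were *Tnf* (80.9%) and *Plppr1* (78.3%). With rows joined by this relation over the whole table, *N4bp3*, which has no such partner, was the 1 member that passed (edgeR adjusted p = 0.00193), among 4 of 26473 joined loci (0.0151%). After the joining 244 members were still at 0 in a library. Rows on the opposite strand overlapped 38 members (13.5%) and 34.5% of the other rows.

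Some of the highest members had no second row by this definition. *Vwa5a*, a protein with a von Willebrand factor A domain, had 4647, 4154 and 0 counts in NOR and 5059, 3942 and 3333 in STZ. A row named for *Cpne1* and LOC100910990, for a calcium-dependent membrane-binding copine, had 3179, 2352 and 64 in NOR and 3713, 2591 and 0 in STZ. Neither row has a counterpart of the same name. LOC108348103, like the epithelial protease inhibitor SPINK5, had 18, 3877 and 3510 in NOR and 0, 0 and 2465 in STZ, and the *Spink5* row, whose description is worded differently, held 4318 to 12845. LOC102552659, like the receptor ERBB2, had 3179, 0 and 2694 in NOR and 3373, 2600 and 0 in STZ, and the *Erbb2* row held 5942 to 45619. AABR07035479, with no described product, had 602 counts in STZ 1 and 0 in the other 5 libraries. LOC102552659 and AABR07035479 were at 0 in both groups, and the zeros of the other 3 rows lay within 1 group.

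LOC100910446, for the vesicle fusion protein syntaxin-7, had 0, 3414 and 0 counts in NOR and 4438, 3188 and 3759 in STZ, and thus did not overlap between the groups. Its *Stx7* row held 4122 to 6040 counts in all libraries, and LOC100910446 did not pass (limma log2 fold change 2.07, adjusted p = 0.953). LOC100910882, for the splicing protein *Rbm39*, had 0, 0 and 5114 in NOR and 0, 1418 and 4625 in STZ, beside 5106 to 7588 in *Rbm39*. LOC103689977, described as caspase-6, had 354 counts in NOR 2 alone, and *Casp6* held 156 to 349.

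A set of 8 lens genes among the members, picked after their values were seen, shared a pattern. Of these, 6 are crystallins (*Cryba4*, *Crybb1*, *Crybb3*, *Crygb*, *Crygc* and *Crygd*), and *Grifin* and *Lim2* encode a lens galectin-like protein and a lens fibre membrane protein. All 8 were highest in STZ 2 and at 0 in STZ 3. Outside this set, the lens connexin *Gja3* was highest in STZ 2 too but was counted in STZ 3. It had 101, 0 and 23 counts in NOR and 31, 190 and 27 in STZ. *Cryba4* had 1413, 345 and 307 counts in NOR and 359, 3039 and 0 in STZ. *Crygb*, one of the γ-crystallins printed above, had 460, 70 and 111 in NOR and 53, 1964 and 0 in STZ. *Crygc* had 547, 78 and 45 in NOR and 113, 2031 and 0 in STZ, and *Crygd* had 100, 14 and 12 in NOR and 8, 1127 and 0 in STZ. *Lim2* was at 0 in STZ 1 too. The summed level of the 8 was 64.9, 15.4 and 16.6 CPM in NOR and 14.5, 234 and 0 CPM in STZ, so the ends of the range were both diabetic libraries.

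The 4 lens markers that are no members, *Cryaa*, *Cryba1*, *Crygs* and *Bfsp1*, had a summed level of 268, 97.7 and 118 CPM in NOR and 129, 1052 and 4.86 CPM in STZ. None of the 4 was at 0 in any library. *Grifin* (Pearson r 0.990 with the mean log2 level of the 4 markers) and *Cryba4* (0.988) were the members most like them over the 6 libraries, and 7 members reached 0.9. In bulk tissue fewer cells of a type and less RNA per cell cannot be told apart. No lens member passed in STZ against NOR, with *Cryba4* at 8.73 ± 7.94 against 17.6 ± 27.1 CPM (SD, n = 3 each; edgeR adjusted p = 0.993).

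STZ 2 and STZ 3 also stood out by other members. A level at least 5 times that of the next library was found for 24 members in STZ 2 and 14 in STZ 3, and for 1 to 5 in each other library. In STZ 2 these included, besides *Crybb1*, *Crygb*, *Crygd* and *Lim2*, the forkhead factor *Foxe3* of the lens epithelium (0, 8 and 0 counts in NOR and 0, 95 and 0 in STZ) and the metalloprotease *Adamts18* (9, 2 and 7 in NOR and 41, 494 and 0 in STZ). In STZ 3 they included *Col9a1*, a cartilage and vitreous collagen (0, 12 and 0 in NOR and 0, 11 and 340 in STZ), *Rlbp1*, the retinaldehyde-binding protein of retinal cells (4, 0 and 0 in NOR and 0, 0 and 65 in STZ), *Best2*, a chloride channel of the ciliary body (0, 4 and 0 in NOR and 5, 8 and 61 in STZ) and the transcription factor *Zic1* (124 in STZ 3 alone). These libraries have the lowest total counts, 62288901 and 64263130. Without STZ 2 the rule finds 227 rows and without STZ 3 it finds 210. The part of depth and of lens tissue in the zeros was not tested.

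**Figure D5:**
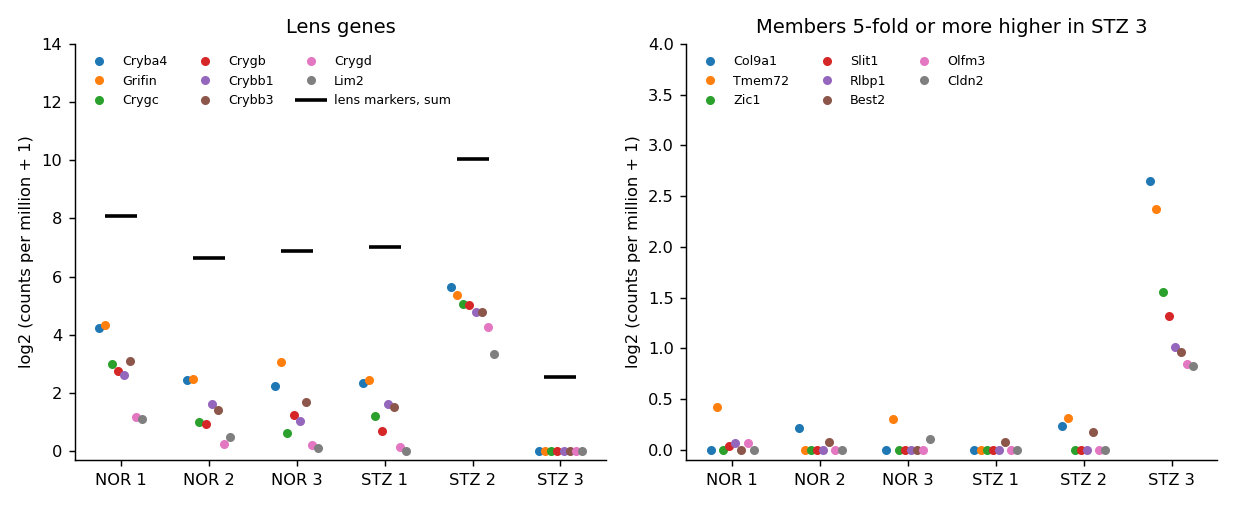
Level on the log2(CPM + 1) scale (y) in each library (x) for 8 lens genes among the members, with the summed level of 4 lens markers as black bars (left), and for 8 of the members at least 5-fold higher in STZ 3 (right; the y axes differ). All 8 lens genes are highest in STZ 2 and at 0 in STZ 3.

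Gene families were counted by the start of the official symbol, so members with a placeholder name or another symbol are outside these counts. Of 65 chemokine, interleukin and receptor rows that reach 50 counts 5 are members. *Cxcl2*, a neutrophil chemokine, had 33, 36 and 0 counts in NOR and 150, 47 and 15 in STZ. *Cxcl13*, a B cell chemokine, had 150, 8 and 0 in NOR and 128, 29 and 0 in STZ. *Hba-a1*, the haemoglobin alpha chain, had 36, 23 and 68 in NOR and 107, 0 and 51 in STZ. By symbol no keratin (of 18 such rows), cytosolic ribosomal protein (83) or histone (40) was a member. Solute carriers gave 9 members of 246, led by *Slc38a3* (0, 12 and 12 in NOR and 0, 184 and 38 in STZ), a glutamine transporter, and *Slc24a2* (38, 0 and 26 in NOR and 0, 138 and 6 in STZ), a sodium and calcium exchanger. Zinc finger symbols (Zfp and the like) gave 2 of 284, *Zfp14* (252, 0 and 291 in NOR and 270, 0 and 234 in STZ) and *Zfp82* (155, 0 and 154 in NOR and 157, 90 and 125 in STZ), both strictly all or none. *Zik1*, another zinc finger protein, had 0, 0 and 104 in NOR and 0, 58 and 0 in STZ. Chemosensory receptors gave 2 of 9, *Olr1641* (0, 57 and 50 in NOR and 134, 97 and 42 in STZ) and *Vom2r16* (24, 71 and 26 in NOR and 28, 30 and 0 in STZ).

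Other families gave from 0 to 7 members each by symbol. Cytochromes P450 gave 2 of 29, *Cyp24a1* and *Cyp2b21* (20, 0 and 59 in NOR and 0, 8 and 11 in STZ). Proteases and their inhibitors gave 3 of 95, among them *Serpine2*, an inhibitor of thrombin (61, 131 and 36 in NOR and 0, 46 and 63 in STZ). Interferon-stimulated genes gave 1 of 43, the guanylate-binding *Gbp6* (59, 69 and 30 in NOR and 0, 0 and 26 in STZ). Kinase symbols gave 2 of 147, *Mapk7* and *Prkar1b*, a regulatory subunit of protein kinase A (37, 54 and 16 in NOR and 0, 10 and 24 in STZ). Besides LOC100910771 and LOC102552659, described above, LOC108348082, like a MAP kinase kinase, had 1343, 1064 and 1480 in NOR and 0, 0 and 1111 in STZ. *Map2k3*, its second row by the orthology entry, held 1115 to 2140. LOC103690016, for the kinase SBK1, had 877, 966 and 734 in NOR and 0, 765 and 663 in STZ. Symbols of collagens, laminins and integrins gave 2 of 66, *Col9a1* and the platelet integrin *Itga2b* (76, 41 and 0 in NOR and 50, 2 and 31 in STZ). Outside that list *Ogn*, the stromal proteoglycan osteoglycin, had 2002, 0 and 2484 in NOR and 0, 1089 and 1511 in STZ. Its second row NEWGENE_1308171 held 1080 to 2615 counts over the libraries. Mitochondrial ribosomal and respiratory chain proteins gave 2 of 159, *Ndufa1* and *Mrpl1*. LOC100910528, like a further protein of the mitochondrial ribosome, had 571, 550 and 565 in NOR and 627, 0 and 315 in STZ. *Mrpl36*, its second row by the orthology entry, held 81 to 199. Ubiquitin and proteasome genes gave 2 of 260, *Rnf113a1* and *Trim58*, and regulators of small GTPases 1 of 188, *Arhgap25*. Transmembrane proteins and families of unassigned role gave 7 of 358, led by *Fam50a* and *Ccdc142*. No row among 5 with a rat histocompatibility symbol and 19 with a glutathione, UDP or sulfotransferase symbol was a member, although LOC103690044 is described as a glutathione transferase. LOC103690108;AABR07044383, described as like a class I histocompatibility antigen, had 0, 0 and 378 in NOR and 94, 0 and 656 in STZ. The shares by symbol stand beside 2.19% for protein-coding rows at large.

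The limit of 50 counts cut through a continuum. Just inside it, with a largest count of 50, lay *Tmem35a* (50, 8 and 19 counts in NOR and 0, 0 and 11 in STZ), *Slc45a3* (32, 29 and 50, and 23, 0 and 14) and *Serpinb6b* (50, 15 and 25, and 16, 32 and 0). Just outside, with 49, lay *Cabcoco1* (49, 0 and 9, and 0, 0 and 4), *Stag3* (49, 0 and 31, and 18, 8 and 0) and *Fgf12* (49, 5 and 0, and 8, 14 and 5). In all 7 members had a largest count of exactly 50, and 10 rows with a library at 0 had 49.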

How the data were processed

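RNA of scraped corneal epithelium was sequenced; the submitters' processing notes name cutadapt, FastQC, Bowtie2 and the build rn6, with the counting program and versions not given in the sources used here. The authors deposited a raw count and an FPKM value (fragments per kilobase and per 1000000 fragments) for each row and library. FPKM was 0.0001 wherever the count was 0 and was set to 0. Groups came from the labels. Members and gene lists were chosen with earlier results of these data known. CPM is the count per 1000000 counts of a library. Over all rows limma 3.58.1 was run on quantile-normalized log2(FPKM + 1) at a mean FPKM of at least 0.5, and edgeR 4.0.16 (quasi-likelihood test, TMM) on counts, in R 4.3.3. DESeq2 1.42.0 was an alternative. P-values were adjusted by Benjamini-Hochberg over the table and measure only the spread between these libraries, which may be technical. In simulated STZ against NOR counts over 44589 rows edgeR found 1 of 50 rows changed 2-fold and 24 of 50 changed 4-fold. It found 40 of 50 changed 8-fold, with 10 false calls. Named were members that followed a group or passed, the 3 highest for each number of zeros, the 5 of largest partner gain, the 5 highest without a partner, the 2 highest of each family list and 3 on each side of the limit of 50. Second rows, stretches, lens genes, other members high in 1 library and placeholder-named or other members beside a family list were named after their values were seen. One member that this rule names is not reported here.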

Additional observations from a re-analysis of the deposited data

How the results depend on the processing

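The number of members followed the limit that calls a row counted: it was 857 at 20 counts and 140 at 100 counts, against 281. Leaving out a library gave 210 to 245 members (210 without STZ 3). *N4bp3* alone followed the groups at either limit and with up to 2 counts taken as 0. With a library left out 3 to 7 members did (7 without NOR 1, 4 without NOR 2 or STZ 3, 3 without NOR 3, STZ 1 or STZ 2), since fewer libraries then have to meet the rule. The 6 members with counts in a partner row became 3 with overlap on the same strand only and 10 with a second row for the same product as partner (added after seeing the data), and 5 to 6 without a library. By limma 1 to 2 members passed with a library left out (2 without NOR 1, NOR 2, NOR 3, STZ 2 or STZ 3), by edgeR 1 to 4 (4 without NOR 1, 3 without NOR 2, 2 without STZ 3), and as joined loci 1 to 3 (3 without NOR 1 or NOR 2, 2 without STZ 3). *N4bp3* kept its limma call in each, with log2 fold changes from −3.10 to −2.93. DESeq2 called 3 members, among 103 of 44589 rows (0.231%), and 4 as joined loci. The causes of these differences were not tested. The share of all rows that passed with a library left out, or by DESeq2 on joined loci, is not given here. These counts are thus no result about members in particular. By edgeR on loci joined by overlap on either strand, 0 members passed (12 at an unadjusted p under 0.05), and *N4bp3* then shares a locus with *Sec24a* and *Trappc2b* rows. Joined by product (added after seeing the data), 0 passed (12 at an unadjusted p under 0.05). LOC100911572 passed without STZ 2 (limma log2 fold change 2.73, adjusted p = 0.0361). STZ 2 is the STZ library in which this row was at 0, so the call rests on the counts that the rule used.

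With the replicate number as a block 0 members passed by limma, by edgeR or as joined loci (15, 13 and 12 at an unadjusted p under 0.05), and *N4bp3* had an adjusted p of 0.0697 by limma and 0.396 by edgeR. Same-numbered libraries did not deviate together (correlations 0.0026, 0.031 and 0.0301), and not every library correlated best with its own number, so the numbers name libraries only. Levels under 0.0345 to 0.0482 CPM cannot be told from 0 at this depth.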
